A study of Homo sapiens with 8 samples.

Results

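The Y RNAs RNY1, RNY3, RNY4 and RNY5 were followed in small RNA sequencing libraries of MEC-1 exosomes and MEC-1 cells. The members were chosen by gene name, as the entries named RNY1, RNY3, RNY4 or RNY5, and all 4 were found among the 2709 features counted. There were 5 exosome libraries and 3 libraries of the parental cells. MEC-1 is an established B-cell line from chronic lymphocytic leukaemia, and exosomes are small membrane vesicles that cells release into their medium. Per the labels' protocols, the cells grew in bioreactors in DMEM with fetal calf serum that had been depleted of its own exosomes, except in the upper medium compartment, and vesicles were collected from the supernatant by serial ultracentrifugation and an Optiprep cushion. The small RNA fraction was sequenced for both kinds of library. No treatment or genotype separates the groups. Every sample comes from the same cell line. The labels do not say whether replicates were separate cultures, and the p-values therefore reflect the spread among these libraries alone, part or all of which may be technical.

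Y RNAs are short cytoplasmic RNAs made by RNA polymerase III. Their ends pair into a stem that binds the Ro60 protein, and the run of U at the 3′ end binds the La protein. They are known for roles in RNA quality control and in the start of DNA replication, and Y RNAs and their fragments are a known part of the RNA outside cells.

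The sequences of RNY1 and RNY4 are shown because the RNAs share their ends and differ in the middle, and because stretches of them recur in other transcripts. They are the GENCODE release 29 transcripts (GRCh38), written 5′ to 3′ as DNA, with capitals for the first 11 bases, which both share, and for the longest run that both share within their last 30 bases, of 6 bases. Other runs that both hold are not marked.
RNY1: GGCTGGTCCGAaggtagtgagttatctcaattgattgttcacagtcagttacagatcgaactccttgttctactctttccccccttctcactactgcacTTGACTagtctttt
RNY4: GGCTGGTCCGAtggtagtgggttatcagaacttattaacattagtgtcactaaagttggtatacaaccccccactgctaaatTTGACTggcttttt
RNY1 lies at chr7:148987136-148987248 on the minus strand and RNY4 at chr7:148963315-148963410 on the plus strand. They are 113 and 96 nt long and end in 4 and 5 T. Aligned end to end, RNY1 and RNY4 were identical at 63.7% of positions. In the structure that RNAfold predicted, 8 of the shared 11 bases of RNY1 paired with its last 30 bases, as did 10 in RNY4.

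The genes form a small cluster on chromosome 7. In the coordinates of the deposited tables (GRCh37), RNY5 (chr7:148638580-148638658) is followed by RNY4 (chr7:148660407-148660502), RNY3 and RNY1 (chr7:148684228-148684340), within a span of 45761 bp. RNY1 is on the minus strand and the other 3 are on the plus strand. RNY5 and RNY4 are 21748 bp apart. No other counted feature overlapped a Y RNA gene, and in GENCODE 29 no annotated gene overlapped RNY1 or RNY4. The RNY5 feature counted is 79 nt long, while RefSeq (GRCh38.p14) gives RNY5 as 84 nt.

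Reads of these RNAs can be hard to place. Under names of the form RNY1P or RNY4P with a number, GENCODE 29 lists 16 pseudogenes of RNY1 and 22 of RNY4. They were up to 91.2% and 95.8% identical to their parents, and none of them had an entry in the count tables. Copies listed under other names were not counted or aligned. Of all 30-base windows, 96.4% in RNY1 and 91.0% in RNY4 also occurred on the same strand of another GENCODE transcript. At 50 bases these shares were 25.0% in RNY1 and 12.8% in RNY4. The treatment of reads with several placements is not given in the sources used here, and its part in the counts was not tested.

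Depth was high in both groups. The exosome libraries held 23353820 to 32436286 counted reads, of which 2778841 to 5171366 were Y RNA reads (10.2% to 17.1%). The cell libraries held 25675636 to 57323598, of which 432227 to 764917 were Y RNA reads (0.829% to 1.68%). Exosome 5 and cell 2 stood apart: RNA28S5, an rRNA, took 51.4% of reads in exosome 5, and SNHG5, a snoRNA host gene, took 13.3% in cell 2. Of 6 listed blood and B-lineage miRNAs, 3 had an entry, and none of the 3 was called different. Their summed level was 6354 to 18256 CPM in exosomes and 12970 to 27145 CPM in cells. Most of it was MIR21, with means of 11172 CPM in exosomes and 20178 CPM in cells. MIR181A1 averaged 357 and 287 CPM, and MIR150 24.9 and 8.33 CPM, in exosomes and cells. The sum thus mainly reflects MIR21 and is not a check of cell lineage.

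All 4 Y RNAs rose in exosomes relative to the cells. Levels are given as CPM, the count relative to the library's total after that total is scaled by its TMM factor, which sets most features level between libraries. Differences were tested with edgeR's quasi-likelihood test on all 1178 features that passed its filter on low counts, with Benjamini-Hochberg adjustment over all of them, and all 4 Y RNAs passed the filter. By this test 20.7% of the tested features were called higher in exosomes and 22.3% lower, and the 4 of 4 Y RNAs called higher are read against the first of these shares. The balance of 244 higher and 263 lower features depended on the setting: it was 293 and 219 with TMM factors computed without the Y RNAs, 291 and 229 with upper-quartile factors, 302 and 224 without large rRNA features, and 179 and 256 without cell 1. CPM are relative levels in bulk samples: the number of vesicles or cells and their RNA content, and more Y RNA and less of other RNA, cannot be told apart. Reads are counted per gene, so full-length Y RNAs and their fragments cannot be told apart either. Read lengths were not examined.

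RNY4, the Y RNA best known from plasma and vesicle RNA, was the most abundant of the 4 in every exosome library. In cells it was ahead of RNY1 in cells 1 and 2 but not in cell 3. RNY4 stood at 97042, 105732, 81613, 90044 and 145235 CPM in exosomes 1 to 5, against 5588, 9717 and 4924 CPM in cells 1 to 3. Every exosome library was above every cell library, and the lowest exosome value was 8.40 times the highest cell value. The difference was 15.4-fold (log2 3.95, SE 0.56, adjusted p = 0.000104).

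RNY1, whose ribonucleoprotein is also known to bind nucleolin, was at 33007, 29372, 17895, 16198 and 37346 CPM in exosomes 1 to 5, against 5414, 4506 and 8525 CPM in cells 1 to 3. Exosomes 3 and 4 were lower than the other exosome libraries and cell 3 was the highest cell library, so that RNY1 had the narrowest gap of the 4, with the lowest exosome value 1.90 times the highest cell value. The difference was 4.35-fold (log2 2.12, SE 0.54, adjusted p = 0.00474), and 6.77-fold without cell 3.

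RNY3, linked to the processing of histone pre-mRNAs, was at 5258, 6215, 5275, 3056 and 4080 CPM in exosomes 1 to 5, against 674, 621 and 1018 CPM in cells 1 to 3. The groups did not overlap, with a gap of 3.00 times. The difference was 6.19-fold (log2 2.63, SE 0.54, adjusted p = 0.00134).

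RNY5, which is known to bind ribosomal protein L5 and 5S rRNA, was at 5927, 6182, 3840, 4087 and 7617 CPM in exosomes 1 to 5, against 184, 175 and 276 CPM in cells 1 to 3. It had the lowest level of the 4 in cells and the widest gap, with the lowest exosome value 13.9 times the highest cell value. The difference was 26.1-fold (log2 4.71, SE 0.61, adjusted p = 6.41e-05). Each of the 4 RNAs had 5 of 5 exosome libraries above all cell libraries, which 21.6% of the tested features also had.

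**Figure D1:**
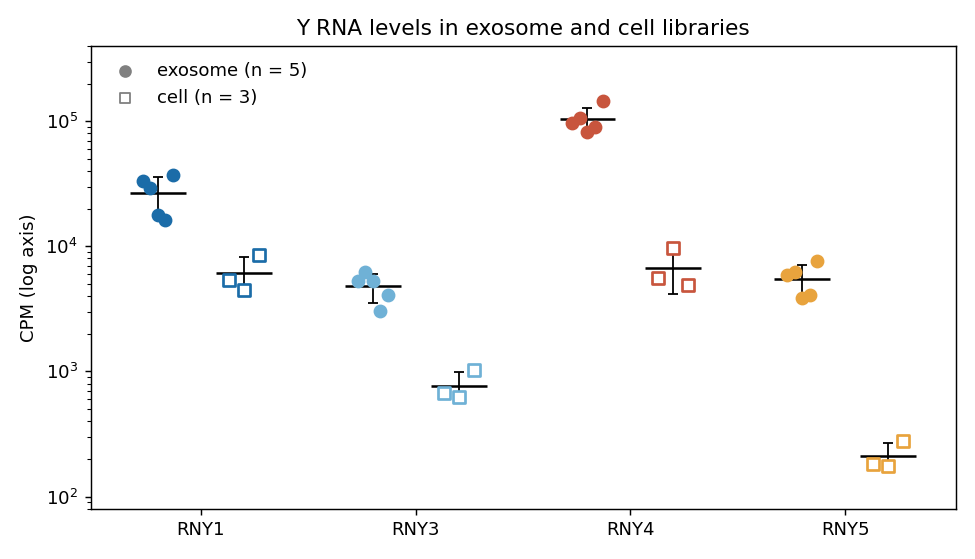
Level of each Y RNA in CPM (log axis) in 5 exosome libraries (filled circles) and 3 cell libraries (open squares); bars are the mean and SD. In all 4 RNAs the exosome points lie above the cell points, with the widest gap for RNY5 (13.9 times) and the narrowest for RNY1 (1.90 times).

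In rank of log2 fold change among the 1178 tested features, RNY5 was 51st, RNY4 73rd, RNY3 176th and RNY1 220th. The median log2 fold change of all tested features was -0.09, and between -0.20 and 0.38 under the other settings tried. All 4 calls held in each of the 22 other settings, which ranged from other scaling factors and tools to leaving out single libraries. Over these settings the fold difference ran from 21.2 to 38.9 for RNY5, 13.5 to 21.0 for RNY4, 5.35 to 9.28 for RNY3 and 3.36 to 6.77 for RNY1. RNY5 had the largest and RNY1 the smallest fold change in all 23 settings, the first one included. A scaling factor is shared by all 4 RNAs of a library, so settings that change only the scaling bear little on this order.

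**Figure D2:**
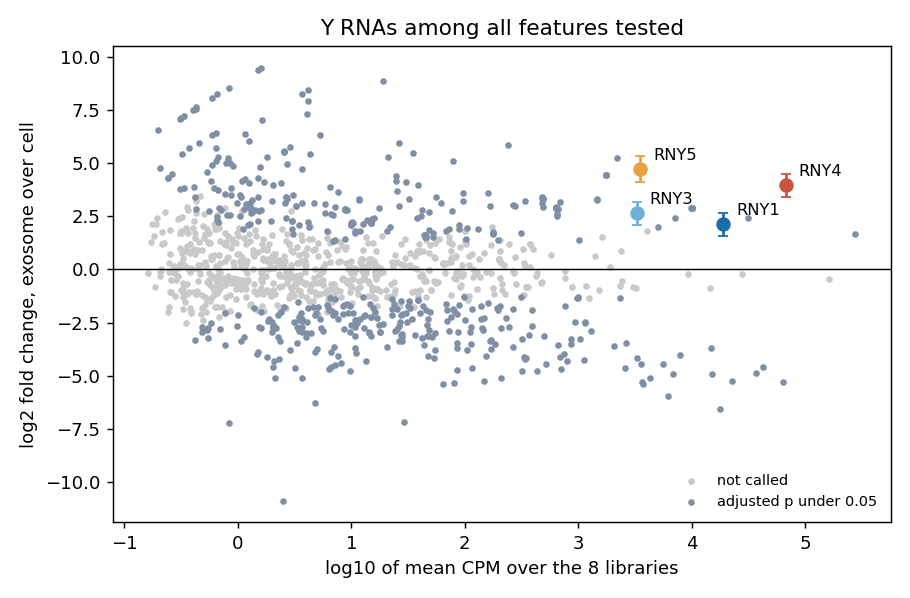
Log2 fold change of exosome over cell against the log10 of mean CPM over the 8 libraries, for 1178 tested features; dark points have an adjusted p under 0.05 and bars on the Y RNAs are the standard error. The 4 Y RNAs lie among the most abundant features and above the line at 0, from 2.12 for RNY1 to 4.71 for RNY5.

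Measured against miRNA reads in the same library, which needs no scaling factor, the groups also stayed apart for all 4 RNAs, as they did with exosomes higher for 25.8% of the tested features on the same scale. RNY4 had 1161, 3700, 1986, 1141 and 1524 reads per 1000 miRNA reads in exosomes 1 to 5, against 65.1, 86.2 and 66.7 in cells 1 to 3. Each exosome library thus held more reads of RNY4 than of all counted miRNAs together, and no cell library did. RNY1 had 395, 1028, 435, 205 and 392 such reads in exosomes 1 to 5, against 63.0, 40.0 and 116 in cells 1 to 3. For RNY3 the range was 38.7 to 217 in exosomes, against 5.51 to 13.8 in cells, and for RNY5 51.8 to 216 in exosomes, against 1.56 to 3.74 in cells. The mean log2 differences on this scale were 5.28 for RNY5, 4.57 for RNY4, 3.21 for RNY3 and 2.69 for RNY1. The order was the same as with TMM scaling. Both scales divide all 4 RNAs of a library by the same number, so this is not separate support for the order. Exosome 2 had the highest value of each RNA on this scale. Its miRNA count, 1001986, was the lowest of the 8 libraries.

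The order of the Y RNAs by level also differed between libraries. Per nucleotide of feature length, RNY4 averaged 1083 ± 258, RNY1 237 ± 82.5, RNY5 70.0 ± 19.9 and RNY3 46.8 ± 12.0 CPM per nt in exosomes (SD, n = 5). In cells the same quantity was 70.2 ± 27.1 for RNY4, 54.4 ± 18.6 for RNY1, 7.56 ± 2.11 for RNY3 and 2.68 ± 0.707 for RNY5 (SD, n = 3). RNY4 was first of all 2709 features per nucleotide in each exosome library, and between 9th and 22nd in the cell libraries. RNY1 ranked between 4th and 11th per nucleotide in exosomes, and between 12th and 30th in cells. By counts, not divided by length, RNY4 ranked 2nd or 3rd in exosomes and between 17th and 25th in cells. RNY1 ranked between 4th and 6th by counts in exosomes, and between 18th and 27th in cells. The first place of RNY4 thus holds per nucleotide only. In cells, RNY4 and RNY1 did not differ beyond their spread: RNY4 was ahead in cells 1 and 2 and RNY1 in cell 3. In exosomes RNY5 and RNY3 also lay within their spread, with RNY5 ahead in 4 of 5 libraries, while in all 3 cell libraries RNY3 was ahead of RNY5.

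As a share of Y RNA reads, RNY4 took 68.7%, 71.7%, 75.1%, 79.4% and 74.8% in exosomes 1 to 5, against 47.1%, 64.7% and 33.4% in cells 1 to 3. RNY1 took 23.4%, 19.9%, 16.5%, 14.3% and 19.2% in exosomes 1 to 5, against 45.6%, 30.0% and 57.8% in cells 1 to 3. The groups do not overlap for either RNA, with RNY4 the larger share in every exosome library and RNY1 the larger share in cell 3. RNY5 took 3.54% to 4.20% in exosomes, against 1.17% to 1.87% in cells, again without overlap. The RNY3 share, 2.10% to 4.86% in exosomes and 4.14% to 6.91% in cells, overlapped between the groups. The widest 95% Wilson interval of any single share spanned 0.298 percentage points, and it covers counting error only.

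**Figure D3:**
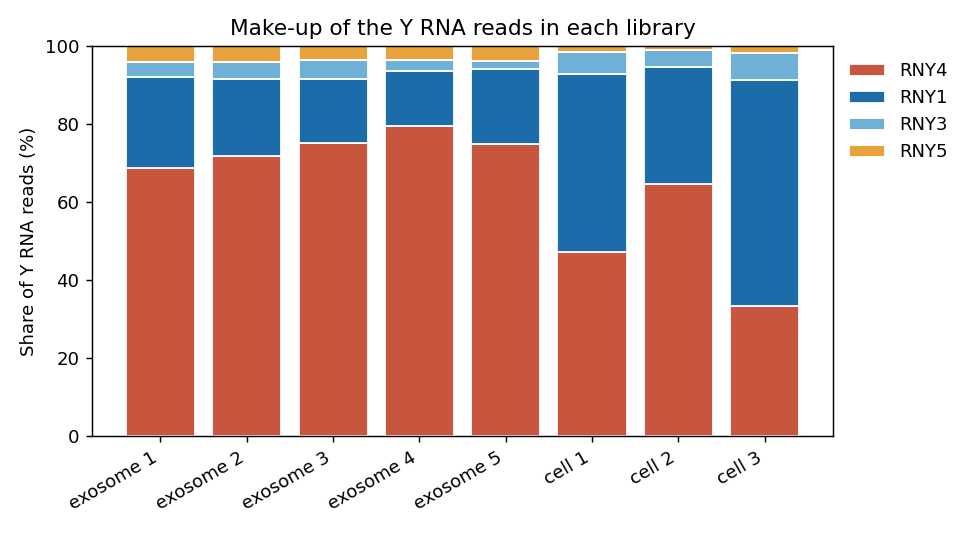
Share of each Y RNA among the Y RNA reads (%) in each of 5 exosome and 3 cell libraries. RNY4 makes up 68.7% or more of every exosome bar and 64.7% or less of every cell bar, and cell 3 is the only one of the 8 libraries in which RNY1 exceeds RNY4.

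Ratios between pairs of Y RNAs within a library do not depend on scaling, and ask whether 2 of them differ in their change between cells and exosomes. An exact permutation test (two-sided) on 5 exosome and 3 cell libraries can give no p below 0.0357, and values were adjusted over the 6 pairs. The groups were fully apart for 3 of the 6 ratios, against 39.9% of all pairs of tested features, and none of the 6 passed after adjustment. With only 3 of the 6 at the smallest possible p, the adjusted p could be no lower than 0.0714. The lack of a pass therefore does not show that the ratios are equal between groups.

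The ratio of RNY5 to RNY1 was 0.180, 0.210, 0.215, 0.252 and 0.204 in exosomes 1 to 5, against 0.0339, 0.0389 and 0.0324 in cells 1 to 3. Values were close within each group and 6.03 times apart between them (log2 difference 2.59, exact permutation p = 0.0357, adjusted p = 0.0714). The ratio of RNY5 to RNY3 was 1.13, 0.995, 0.728, 1.34 and 1.87 in exosomes 1 to 5, against 0.272, 0.282 and 0.271 in cells 1 to 3. The 3 cell libraries were nearly equal, and the exosome libraries lay on both sides of 1. The ratio was 4.19 times higher in exosomes (log2 difference 2.07, exact permutation p = 0.0357, adjusted p = 0.0714), and the SD on the log2 scale was 0.50 over the exosome libraries and 0.03 over the cell libraries.

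The ratio of RNY4 to RNY1 was 2.94, 3.60, 4.56, 5.56 and 3.89 in exosomes 1 to 5, against 1.03, 2.16 and 0.578 in cells 1 to 3. The cell libraries differed more among themselves than the exosome libraries did (SD on the log2 scale 0.35 in exosomes and 0.95 in cells), and the difference was 3.69-fold (log2 1.88, exact permutation p = 0.0357, adjusted p = 0.0714). The ratio of RNY4 to RNY3 was 18.5, 17.0, 15.5, 29.5 and 35.6 in exosomes 1 to 5, against 8.29, 15.6 and 4.83 in cells 1 to 3. The groups overlapped in that cell 2 lay just above exosome 3 (log2 difference 1.36, exact permutation p = 0.0714, adjusted p = 0.107). The ratio of RNY5 to RNY4 was 0.0611, 0.0585, 0.0471, 0.0454 and 0.0524 in exosomes 1 to 5, against 0.0329, 0.0180 and 0.0560 in cells 1 to 3, where cell 3 lay among the exosome libraries. The log2 differences of RNY5 to RNY4 (0.71) and RNY3 to RNY1 (0.53), whose groups also overlapped, were the smallest (exact permutation p = 0.143 for both, adjusted p = 0.143).

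**Figure D4:**
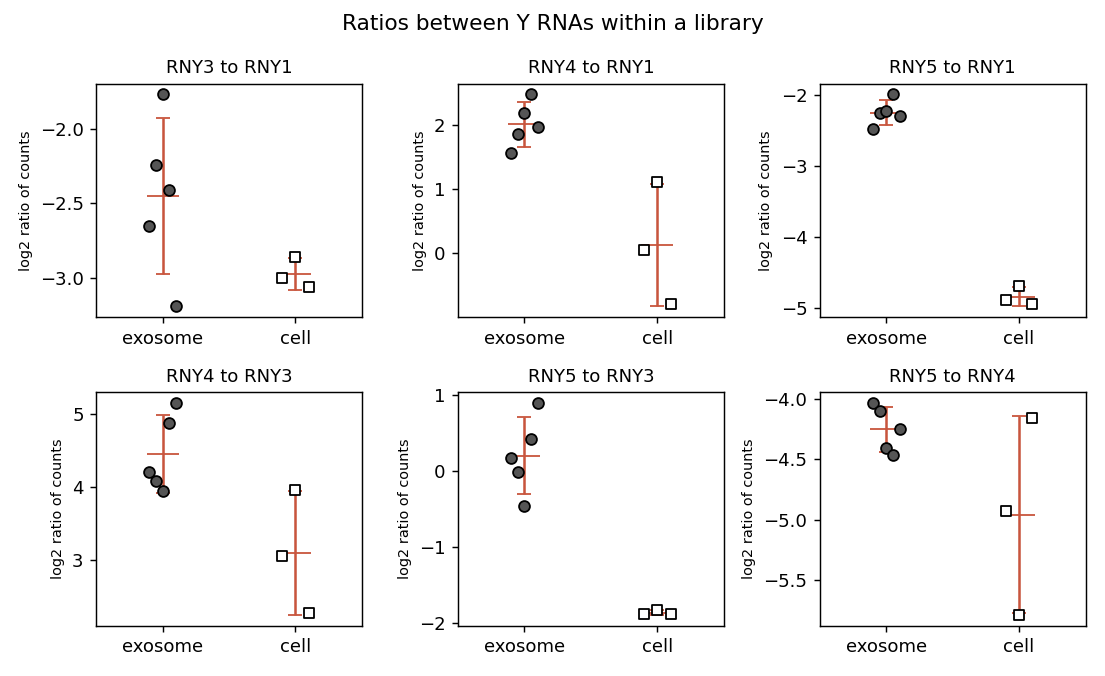
Log2 ratio of counts for the 6 pairs of Y RNAs in exosome libraries (filled circles, n = 5) and cell libraries (open squares, n = 3); red bars are the mean and SD. The groups are apart for RNY4 to RNY1, RNY5 to RNY1 and RNY5 to RNY3, and overlap for the other 3.

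The Y RNAs varied less among exosome libraries than the median of other abundant features, RNY1 by the smallest margin. The coefficient of variation of the CPM was 23.8% for RNY4, 25.6% for RNY3, 28.4% for RNY5 and 34.9% for RNY1 over the 5 exosome libraries, against a median of 41.8% over the 215 features that averaged at least 100 CPM. Of these features, 6.51% varied less than RNY4, 8.84% less than RNY3, 10.7% less than RNY5 and 30.7% less than RNY1. Over the 3 cell libraries it ran from 26.4% (RNY5) to 38.5% (RNY4), against a median of 51.8%. In CPM, RNY4 was highest in exosome 5 and, among cells, in cell 2, while RNY1, RNY3 and RNY5 were each highest in cell 3. These places depend on the scaling, as exosome 5 and cell 2 had the lowest TMM factors (0.524 and 0.552). As a percentage of a library's reads, RNY4 was lowest among exosomes in exosome 5 (7.60%). Among cells it was highest in cell 1 (0.793%, against 0.536% in cell 2).

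To find the features whose pattern was most like each Y RNA, log2 CPM were centred on their mean over the 8 libraries and compared by the root mean square difference, among 188 candidates of at least 100 CPM. RNY1 and RNY3 lay 0.45 apart and RNY4 and RNY5 0.55 apart, while the distances between these pairs ran from 0.87 to 1.26. The features nearest to RNY3 were RN7SL2 (0.31) and RN7SL1 (0.41), genes of the 7SL RNA of the signal recognition particle, and outside the family these were also nearest to RNY1 (0.54 and 0.57). RN7SL1 and RN7SL2 are near copies of each other, so the split of reads between them is uncertain. For RNY5 the nearest feature outside the family was RN7SL1 (0.77). For RNY4 they were 3 features of 72 to 73 nt on chromosome 1, listed as 7696, 7656 and 7567 (each 0.45), which the files do not pair with a gene name. These distances describe 8 libraries in 2 groups, so any feature with a similar difference between exosomes and cells lies near.

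Other RNAs made by RNA polymerase III did not all move with the Y RNAs. Y RNA genes have their promoter upstream of the start, as do the genes of 7SK and of the U6 and U6atac spliceosomal RNAs. Of 7 such entries in the tables, 2 passed the filter. RMRP, RPPH1, TRNAU1 and TRSC were also looked for and had no entry. The comparison thus rests on RN7SK and the much lower RNU6ATAC, and does not cover the whole class. RN7SK, which holds a transcription elongation factor inactive in the nucleus, fell to 227 ± 38.9 CPM in exosomes, against 9524 ± 8450 CPM in cells (log2 -5.39, SE 0.71, adjusted p = 6.41e-05, edgeR; -6.01 without cell 2 and -4.31 without cell 3). RNU6ATAC was at 1.18 ± 0.484 and 2.41 ± 1.67 CPM in exosomes and cells (log2 -1.02, SE 0.70, adjusted p = 0.256).

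Of 25 listed entries for RNA polymerase III transcripts with other promoters (7SL, vault RNAs, 5S rRNA and BCYRN1), 9 passed the filter. The list held no tRNA entries, so the counts here cover the listed RNAs and not the whole class. Of the 9, 7 were called higher in exosomes and none lower, against 20.7% and 22.3% of all tested features. The median over the 9 was 3.20 on the log2 fold change scale, against -0.09 over all tested features. The 7 were all genes of the 7SL and vault RNA families, so they are not separate cases. The list was also chosen with earlier results of these data known, so the count is not an independent test. The 2 without a call were BCYRN1 (log2 2.06, adjusted p = 0.0535) and RNA5S9 (adjusted p = 0.668). The 16 entries with no reads in any library were all 5S rRNA copies. As these are copies of a repeated gene, 0 reads need not mean that the RNA was absent. How reads with several placements were treated is not given, and RNA5S9 alone does not describe 5S rRNA. RN7SL1 averaged 509 ± 145 CPM in exosomes, against 54.5 ± 11.6 CPM in cells (log2 3.22, SE 0.57, adjusted p = 0.000487). VTRNA1-1, a vault RNA, averaged 3434 ± 4080 and 90.6 ± 54.1 CPM in exosomes and cells (log2 5.24, SE 1.05, adjusted p = 0.00109), with log2 values of 4.25 without exosome 5, 5.84 without exosome 3 and 6.20 without cell 3, and 3.98 without exosome 5 and cell 2 together. On replicates 1 to 3 alone it was 4.16. VTRNA2-1 averaged 1316 ± 387 CPM in exosomes, against 497 ± 144 CPM in cells (log2 1.41, SE 0.53, adjusted p = 0.0415). It was no longer called in 9 of 22 other settings, among them those without exosome 1 (adjusted p = 0.0714), exosome 5 (0.0652), cell 1 (0.177) and cell 2 (0.0857).

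Marker miRNAs of other tissues were checked as a sign of RNA from elsewhere. Of 27 listed, 22 had an entry and 19 passed the filter, of which 6 were higher in exosomes and none lower, against 20.7% and 22.3% of all tested features. Besides MIR122, these were MIR143 (14.8-fold, edgeR adjusted p = 0.00128), MIR203 (14.2-fold, 0.0170) and MIR126 (7.47-fold, 0.00538). MIR199B (5.81-fold, 0.0256) and MIR215 (3.76-fold, 0.0466) were also among them. MIR203, MIR199B and MIR215 were low, with means of 1.35, 1.25 and 1.53 CPM in exosomes. The other 13 were not called and went in both directions. Among them were MIR199A2 (log2 1.92, adjusted p = 0.0834) and MIR486 (0.858, adjusted p = 0.299). Lower ones were MIR141 (log2 -1.51, adjusted p = 0.225), MIR9-1 (-1.28, adjusted p = 0.106) and MIR200B (-1.26, adjusted p = 0.0693). The summed level of the list, 182 to 356 CPM in exosomes and 159 to 197 CPM in cells, overlapped between the groups. The muscle miRNAs MIR208A and MIR208B had no read in any cell library, but they were near 0 in exosomes too (means of 0.620 and 0.101 CPM) and were not tested. MIR122, the main miRNA of liver, was at 19.9, 35.3, 114, 37.5 and 70.1 CPM in exosomes 1 to 5, against 1.34, 2.00 and 0.424 CPM in cells 1 to 3 (log2 5.47, SE 0.85, adjusted p = 0.000193). There were 717 to 4887 RNY4 reads per MIR122 read in exosomes, against 4156 to 11612 in cells. The part of RNA from other sources, such as the culture serum, in the Y RNA levels was not tested.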

How the data were processed

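Small RNA libraries of 5 exosome and 3 cell samples were analysed. Each deposited table gives raw counts of reads for 2709 non-coding features, under a featureCounts header, per the file headers. Named in the submitters' processing notes are the build GRCh37 (hg19, hs37d5) and the tools cutadapt 1.1, STAR, featureCounts and DESeq2 1.8.2. Samples were grouped by their titles. Counts were tested with edgeR 4.0.16 (R 4.3.3): filterByExpr (10 counts as its minimum), TMM factors from the filtered features, glmQLFit and glmQLFTest, with 0.05 as the threshold for an adjusted p. The standard error (SE) is the log2 fold change divided by the square root of F. DESeq2 1.42.0 and limma 3.58.1 (voom) were alternatives, with other scalings and filters, single libraries left out, near-identical features (84 features in 30 groups, within 2% or 5 reads in every library, none a Y RNA) counted singly, and replicate number as a block. The code was tested on simulated data. Ratios used an exact permutation test (SciPy 1.17.1). Structures were predicted with RNAfold of ViennaRNA 2.7.2, and alignments made with Biopython 1.88. Profile distances used log2(CPM + 0.5). Libraries carry no molecular identifiers, so intervals cover counting error only. No 2 libraries of a group were alike within sampling noise (chi-square per degree of freedom at least 1639).

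Features are named by a written rule: the 4 members, the 5 features nearest to each in profile (of which those closest are named), the most abundant members of the 2 polymerase III lists, and tissue markers. The members, lists and this rule were chosen with earlier results of these data known. Per the design text, cells were harvested in parallel for 3 of the exosome samples, which it leaves unnamed. Deviations from group means correlated by 0.00335, -0.11 and 0.293 between same-numbered libraries, and by -0.241 to 0.212 between other-numbered ones. So few values cannot decide whether the numbers are pairs. As the pairs are not named, the main test used none, and any real pairing is ignored there. Promoter and RNY5 sequences were not used here, and the RNY3 sequence is not reported.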

Additional observations from a re-analysis of the deposited data

Results flagged for a closer look

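In 3 of 21 groups of 5 exosome values, 1 library lay far from the others by Dixon's criterion, where chance gives about 1 in 20. The groups are not independent, as they reuse the same Y RNA counts and miRNA totals. The 3 flags can therefore not be weighed against that rate as separate tests. RNY1 reads per 1000 miRNA reads were set apart by exosome 2, at 1028 against 205 to 435 in the other 4 exosome libraries, with a gap of 0.720 of the whole range (critical value 0.71). RNY5 reads per 1000 miRNA reads were set apart by the same library, at 216 against 51.8 to 93.4, with a gap of 0.747 of the range. The share of all 4 Y RNAs among a library's reads was set apart by exosome 5, at 10.2% against 15.3% to 17.1%, with a gap of 0.742 of the range. Exosome 5 is also the library in which RNA28S5 took 51.4% of reads, and it had the highest CPM of RNY1, RNY4 and RNY5. Its TMM factor, 0.524, was the lowest of all libraries. As a percentage of a library's reads, RNY1 (1.96%), RNY4 (7.60%) and RNY5 (0.399%) were each lowest among exosomes in exosome 5. The part of either library's make-up in these values was not tested.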

How the results depend on the processing

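All 4 Y RNAs kept their direction and their call under each of the 22 other settings. With single libraries left out, the log2 fold change ran from 4.48 to 5.28 for RNY5, 3.75 to 4.39 for RNY4, 2.42 to 3.21 for RNY3 and 1.83 to 2.76 for RNY1, with adjusted p-values of at most 0.0283. Without exosome 5 and cell 2 together they were 4.40, 4.08, 2.51 and 1.75, and the highest adjusted p was 0.0284 (RNY1). With the replicate block on replicates 1 to 3, RNY1 was at 2.20, RNY3 at 2.94, RNY4 at 3.93 and RNY5 at 4.71, all called, VTRNA1-1 at 3.65 (12.6-fold), and 333 features were called in all, against 507 in the 8 libraries; the same 6 libraries with no replicate block, a setting chosen after seeing the data, gave 398. The number of called features was otherwise 413 to 588. The block changed no call of a Y RNA, and with it the mean paired log2 differences of the 6 ratios ran from 0.76 to 2.52. With 1 library left out, the ratio differences ran from 0.29 (RNY5 to RNY4, without cell 2) to 2.67, all in the direction given; with a library left out the smallest possible p is 0.0571 or 0.0952, so these settings say nothing about the test. Of the 5 features nearest to each Y RNA, 2 or 3 remained when features of at least 10 CPM were allowed. By the largest absolute difference, 3 remained for RNY1 and 2 for RNY5.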
